A study of Mus musculus with 12 samples.

Results

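The Iroquois genes Irx1, Irx2, Irx3, Irx4, Irx5 and Irx6 encode a family of homeobox transcription factors. They were taken by gene symbol from the deposited count table, where all 6 were found among 40594 genes, each with 1 Ensembl identifier. RNA had been sequenced from the left ventricle (LV) and right ventricle (RV) of adult mouse hearts whose genotype label was control or Wnt loss of function (WntLOF), with 3 libraries in each of the 4 groups control LV, control RV, WntLOF LV and WntLOF RV. The sources used here give no allele, Cre driver, strain or sex for these labels, and no treatment is named. The title of the series places the question in how Wnt-dependent gene programmes and arrhythmia differ between the ventricles. Nothing in the labels shows whether libraries within a group are from different animals, so a p-value here measures the spread between libraries.

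Iroquois proteins bind DNA through a homeodomain of the TALE class, which carries an extra loop between its first and second helices, and they act mainly as repressors. The mouse genes lie in paired clusters that arose by duplication. In the heart, Irx4 is a marker of ventricular muscle, Irx3 is best known for its part in the fast conduction system, and Irx5 is known for repressing the potassium channel gene Kcnd2 across the ventricular wall. Irx1 and Irx2 are known from the developing interventricular septum, and Irx6 is the least studied of the family in the heart.

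By the GENCODE M21 annotation of the GRCm38 build, Irx1 (ENSMUSG00000060969) lies on the minus strand of chromosome 13 at 71957921 to 71963723. It is followed on the plus strand by Irx2 (ENSMUSG00000001504) at 72628820 to 72634198 and Irx4 (ENSMUSG00000021604) at 73260479 to 73269608. The other cluster, on chromosome 8, holds Irx3 (ENSMUSG00000031734) on the minus strand at 91798525 to 91802067. Irx5 (ENSMUSG00000031737) at 92357625 to 92376286 and Irx6 (ENSMUSG00000031738) at 92674288 to 92680956 follow on the plus strand. Neighbours within a cluster are 298 to 665.1 kb apart.

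The stretch of coding sequence that ends in the recognition helix of the homeodomain is shown for each member. The members are closely alike there, and reads could be assigned to the wrong member. Identity was not computed for the rest of the coding sequence. Each stretch has 114 bases and is written 5′ to 3′ on the coding strand. The capitals mark the last 8 codons, the part of the recognition helix that holds the Trp-Phe, Asn and Arg residues typical of homeodomains.
Irx1: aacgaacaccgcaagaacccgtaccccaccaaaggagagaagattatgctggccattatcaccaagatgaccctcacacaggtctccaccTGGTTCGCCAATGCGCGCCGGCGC
Irx2: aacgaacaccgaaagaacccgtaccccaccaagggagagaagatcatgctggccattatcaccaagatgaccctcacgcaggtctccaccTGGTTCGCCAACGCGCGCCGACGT
Irx3: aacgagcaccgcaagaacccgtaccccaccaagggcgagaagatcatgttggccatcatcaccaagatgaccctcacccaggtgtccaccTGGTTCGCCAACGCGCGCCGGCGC
Irx4: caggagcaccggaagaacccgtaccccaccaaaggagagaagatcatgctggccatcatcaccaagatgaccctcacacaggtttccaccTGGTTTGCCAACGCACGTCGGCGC
Irx5: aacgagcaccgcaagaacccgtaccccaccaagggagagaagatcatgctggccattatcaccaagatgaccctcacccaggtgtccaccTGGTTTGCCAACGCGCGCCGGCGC
Irx6: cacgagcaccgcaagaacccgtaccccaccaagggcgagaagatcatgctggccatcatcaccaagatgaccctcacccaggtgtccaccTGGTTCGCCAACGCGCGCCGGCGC
These stretches lie within 1 exon each, at chr13:71960010-71960123 (minus strand, exon 2) for Irx1, chr13:72630721-72630834 (plus, exon 2) for Irx2 and chr8:91800514-91800627 (minus, exon 2) for Irx3. The others are at chr13:73267580-73267693 (plus, exon 5) for Irx4, chr8:92359684-92359797 (plus, exon 2) for Irx5 and chr8:92677293-92677406 (plus, exon 4) for Irx6. Identity between members over the 114 bases ran from 88.6% (Irx2 and Irx4) to 98.2% (Irx3 and Irx6, 112 identical bases). Over the whole coding sequence the longest exactly shared run was 88 bases for Irx3 and Irx6, 65 bases for Irx2 and Irx5 and 50 bases for Irx3 and Irx5. How reads with more than 1 possible origin were counted is not given, so the counts of these pairs are uncertain in the shared runs. The run of Irx2 and Irx5 lies within the 114 bases shown. Those of Irx3 with Irx6 and of Irx3 with Irx5 are not confined to them. Irx3 also overlaps the antisense gene Irx3os and Irx6 overlaps Gm45505 on the other strand, and without a stated strand setting their reads cannot be told apart.

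The total count per library ran from 13.3 to 19.2 in units of 1e+06 reads, and mitochondrially encoded genes took 4.62% to 8.29% of it. Of the 40594 genes, 15494 passed the filter on low counts and were tested, among them 5 of the 6 members. No gene reached an adjusted p of 0.05 in any of the 7 comparisons by edgeR's quasi-likelihood test, while 312 to 1285 genes had an unadjusted p under 0.05. DESeq2 called 0 genes in 5 of the comparisons, 5 in WntLOF against control over both ventricles and 10 in RV against LV over both genotypes. Both WntLOF libraries numbered 1 stood apart in genes that otherwise separated the ventricles. Wif1, a secreted Wnt inhibitor, was at 2.63 to 3.18 CPM (counts scaled to library size with TMM factors) in control LV and at 11.99 to 18.4 CPM in control RV, but at 13.5 CPM in WntLOF LV 1 and 2.56 CPM in WntLOF RV 1. Aqp4, a water channel, was likewise at 31.2 CPM in WntLOF LV 1 and 8.11 CPM in WntLOF RV 1. An earlier analysis of these data, not repeated here, put the origin of control LV 2 in doubt, and values without it are given for that reason only. Its Wif1 (2.69 CPM) and Aqp4 (8.54 CPM) levels were like those of the other control LV libraries. The library numbered 3 was the only one of each group with the Y-linked gene Ddx3y above 1 CPM, so each group holds RNA of more than 1 animal, while whether libraries 1 and 2 do is not known. Ventricular muscle markers such as Myl2 and Tnnt2 were abundant in all libraries, with the 8 of the list summing to 1.39e+05 CPM or more. The 4 atrial muscle markers summed to at most 3.25 CPM in the other groups and reached 23.9 CPM in 1 WntLOF RV library.

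Irx3 and Irx4 were the most abundant members in every group. Levels per length, in RPKM over the union of annotated exons, averaged 18.6 ± 3.45 for Irx3 and 15.9 ± 2.15 for Irx4 (SD over 12 libraries). Irx5 followed at 3.97 ± 1.45 RPKM, Irx1 at 2.95 ± 1.31 RPKM and Irx2 at 1.87 ± 0.574 RPKM (SD over 12 libraries). Some neighbours in this order were close. Irx3 exceeded Irx4 in 10 of 12 libraries, Irx5 exceeded Irx1 in 9 of 12 and Irx1 exceeded Irx2 in 11 of 12, and the ranges of these pairs overlapped. Irx4 lay between 12.9 and 19.3 RPKM, above the highest Irx5 value of 6.72 RPKM. Of the summed CPM of the family, Irx3 made up 35.5% to 52.1% and Irx4 28.4% to 41.5% of a library.

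Irx6 was at or near the detection limit. It had 1 read in control LV 2, 2 reads in control RV 2, 1 read in control RV 3 and 0 reads in the other 9 libraries, all 6 WntLOF libraries included. A count of 0 allows up to 3 counts, or 0.154 to 0.227 CPM at these depths by counting error alone. Irx6 was therefore not detectable at this depth in most libraries, and no edgeR fold change was computed for it. It did enter the permutation tests given below, where its differences rest on these few reads. Mkx, the nearest relative of the family, was also too low to test, at 0.06 to 0.38 CPM.

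**Figure D1:**
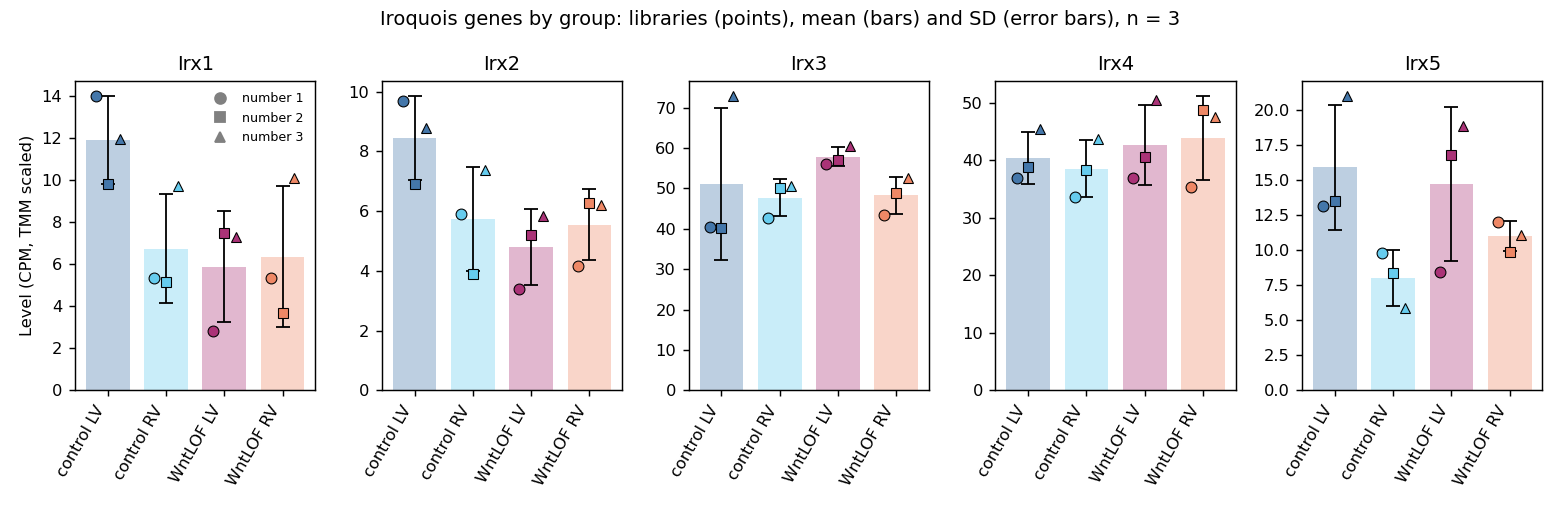
Levels of the 5 tested Iroquois genes in CPM (TMM scaled, linear axes from 0), with 1 point per library, bars for the group mean and error bars for the SD (n = 3); the marker shape gives the library number. Irx1 and Irx2 had their highest group means in control LV, where all 3 libraries lay above all 3 of WntLOF LV. The Irx4 groups overlapped throughout.

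The first question was whether Wnt loss of function went with a different level of the family in the LV. Irx1 and Irx2 were lower in all 3 WntLOF LV libraries than in any control LV library, and Irx3, Irx4 and Irx5 overlapped between the groups. Of the 5 tested members, 0 passed the adjusted test (0.0% of all genes did). Both Irx1 and Irx2 had an unadjusted p under 0.05, against 2.85% of all genes tested, and these 2 of 5 had groups that did not overlap in the lower direction, against 3.95% of all genes (also 3.95% in the higher direction). In bulk tissue, fewer cells of a type and less RNA per cell cannot be told apart.

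Irx2 was at 9.68, 6.91 and 8.77 CPM in control LV 1, 2 and 3 and at 3.38, 5.20 and 5.83 CPM in WntLOF LV. The lowest control library was therefore above the highest WntLOF library, by a narrow margin. The means were 8.45 ± 1.41 and 4.80 ± 1.27 CPM (SD, n = 3), and the log2 fold change was -0.81 (SE 0.26, 95% interval -1.36 to -0.26). Its unadjusted p of 0.00701 ranked 29 of 15494 genes, and its adjusted p was 0.999 by edgeR (0.871 to 1 over the alternatives). Without both WntLOF libraries numbered 1 the log2 fold change was -0.61.

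Irx1 was at 14.0, 9.81 and 11.9 CPM in control LV and at 2.85, 7.50 and 7.29 CPM in WntLOF LV. WntLOF LV 1 was the lowest of all 12 libraries. The means were 11.9 ± 2.10 and 5.88 ± 2.63 CPM (SD, n = 3), with a log2 fold change of -1.02 (SE 0.42, 95% interval -1.95 to -0.09). Its unadjusted p was 0.0338 and its adjusted p 0.999 by edgeR. Without both WntLOF libraries numbered 1 the log2 fold change was -0.69, with an unadjusted p of 0.115 by edgeR.

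In the authors' deposited table for the LV, Irx2 had a log2 fold change of -0.90 and ranked 9 by p of 14179 genes, and Irx1 had -1.22 and ranked 32. The adjusted p of both was 0.841 in the authors' deposited table, which has 0 genes under 0.05.

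The other 3 members did not separate the LV groups. Irx3 was at 40.6, 40.1 and 72.9 CPM in control LV and at 56.0, 56.9 and 60.6 CPM in WntLOF LV, so that control LV 3 was the highest library and the other control libraries the lowest. Its log2 fold change was 0.18 (SE 0.19, 95% interval -0.23 to 0.60), and it moved to 0.53 without control LV 3, to 0.04 without control LV 1 and to 0.04 without control LV 2. Irx4 was at 36.9, 38.8 and 45.4 CPM in control LV and at 36.8, 40.6 and 50.4 CPM in WntLOF LV, with a log2 fold change of 0.08 (SE 0.15, 95% interval -0.24 to 0.40). Of the tested members, Irx4 had the narrowest intervals. Irx5 had a log2 fold change of -0.11 (SE 0.28), which was 0.17 without both WntLOF libraries numbered 1, so its direction rests on those libraries. None of the 13 marker lists had sums that separated WntLOF LV from control LV, but some overlapped only narrowly. The endocardial and endothelial markers summed to 641 to 792 CPM in WntLOF LV and to 783 to 839 CPM in control LV. The macrophage markers went the other way, at 91.6 to 100.1 CPM and 75.1 to 92.8 CPM. The part of cell types in the differences of Irx1 and Irx2 was not tested.

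In the RV, the same genotype comparison gave small differences for 3 members. Irx1 was at 5.36, 5.17 and 9.73 CPM in control RV and at 5.33, 3.67 and 10.1 CPM in WntLOF RV, with a log2 fold change of -0.09 (SE 0.43). Irx2 was at 5.91, 3.91 and 7.38 CPM and at 4.17, 6.26 and 6.20 CPM, with -0.05 (SE 0.26). Irx3 had a log2 fold change of 0.02 (SE 0.19). The groups of all 3 overlapped, and the 95% interval for Irx1 (-1.03 to 0.86) still includes changes as large as those of the LV. Irx4 was at 33.6, 38.3 and 43.6 CPM in control RV and at 35.4, 48.7 and 47.4 CPM in WntLOF RV, with a log2 fold change of 0.19 (SE 0.15).

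Irx5 was at 9.82, 8.34 and 5.88 CPM in control RV and at 12.05, 9.87 and 11.1 CPM in WntLOF RV. The groups did not overlap, but the lowest WntLOF library was only just above the highest control library. The log2 fold change was 0.46 (SE 0.29, 95% interval -0.18 to 1.09; unadjusted p = 0.145, adjusted p = 1 by edgeR). The value was 0.385 (unadjusted p = 0.136 by edgeR) without both WntLOF libraries numbered 1. Irx5 was 1 of 5 members higher without overlap, against 3.61% of all genes, and none was lower without overlap (3.94%). Of the 5 members, 0 passed the adjusted test (0.0% of all genes) and 0 had an unadjusted p under 0.05 (2.7% of all genes). None of the 13 marker lists separated the groups.

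**Figure D2:**
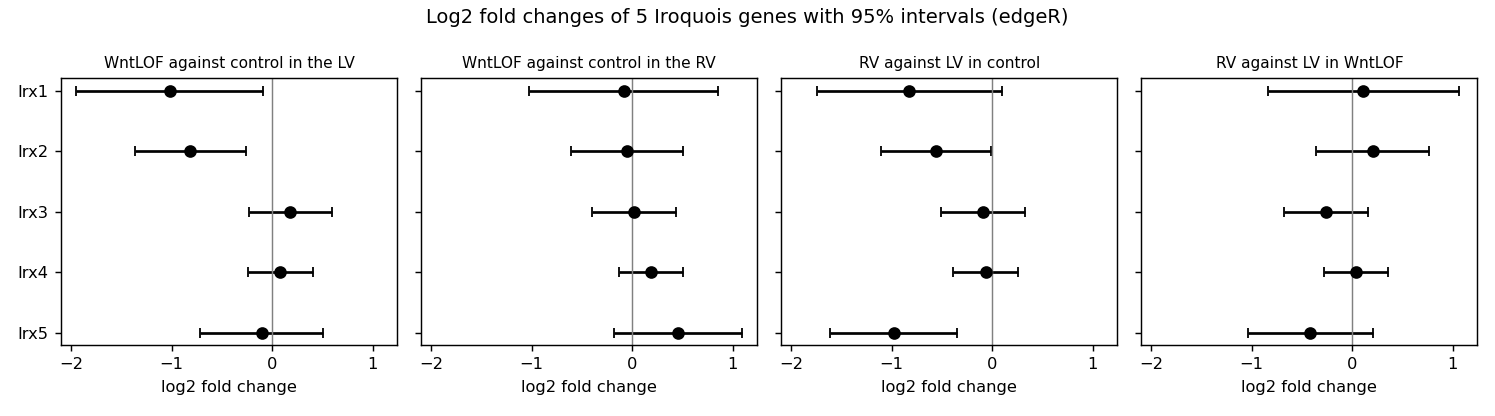
Log2 fold changes of the 5 tested members (points) with 95% intervals (bars) from edgeR in the 4 comparisons between groups, with a line at 0. The intervals of Irx1 and Irx2 in the LV, and of Irx2 and Irx5 between control ventricles, did not include 0 before adjustment over all genes.

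The next question was how the ventricles differ in control hearts. Irx1, Irx2, Irx4 and Irx5 were lower in the RV library of every control pair (18.1% of all genes were), by little for Irx4. Irx5 and Irx1 had groups that did not overlap (2 of 5 members, against 5.92% of all genes in that direction). None was higher without overlap (6.68% of all genes). For Irx1 the margin was narrow, with a lowest control LV value of 9.81 CPM and a highest control RV value of 9.73 CPM. Of the 5 members, 0 passed the adjusted test (0.0% of all genes), and Irx5 and Irx2 had an unadjusted p under 0.05 (4.89% of all genes). This comparison uses the control LV libraries that also serve the genotype comparison in the LV, so the values of Irx1 and Irx2 in both are not independent.

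Irx5 was at 13.2, 13.5 and 21.0 CPM in control LV and at 9.82, 8.34 and 5.88 CPM in control RV. Control LV 3 was the highest and control RV 3 the lowest of all 12 libraries, so pair 3 had the widest gap. The means were 15.9 ± 4.43 and 8.01 ± 1.99 CPM (SD, n = 3), and the log2 fold change was -0.98 (SE 0.29, 95% interval -1.61 to -0.35). Its unadjusted p of 0.00556 ranked 52 of 15494 genes and its adjusted p was 0.922 by edgeR (0.208 to 1 over the alternatives).

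Irx1 and Irx2, with the LV and RV values given above, had log2 fold changes of -0.82 (SE 0.42) and -0.56 (SE 0.25). The RV to LV ratios of Irx1 in pairs 1, 2 and 3 were 0.383, 0.527 and 0.814, and those of Irx2 were 0.611, 0.566 and 0.841. Pair 3 had the smallest gap for both genes, the reverse of Irx5. The adjusted p of both was 0.922 by edgeR. With the 6 control libraries fitted alone and the library number as a block, a choice made after the data were seen, the adjusted p by edgeR was 0.0455 for Irx1, 0.0531 for Irx2 and 0.293 for Irx5, and 326 genes were called. That fit pairs control RV 2 with control LV 2. Without the control pair numbered 2, 67 genes were called and the adjusted p was 0.199 for Irx1, 0.26 for Irx2 and 0.208 for Irx5 by edgeR.

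Irx3 and Irx4 had log2 fold changes of -0.10 (SE 0.19) and -0.07 (SE 0.15) between the control ventricles, with overlapping groups. In the same libraries, 3 of the 13 marker lists had sums that did not overlap. The 6 endocardial and endothelial markers summed to 783 to 839 CPM in control LV and to 697 to 720 CPM in control RV. The 3 erythroid markers summed to 103 to 121 CPM and to 141 to 235 CPM, and the 4 adipocyte markers to 1.59 to 2.79 CPM and to 0 to 1.19 CPM, with all 4 at 0 in control RV 3. The part of these cell types in the differences of Irx1, Irx2 and Irx5 was not tested.

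In WntLOF hearts, Irx5 was at 8.48, 16.8 and 18.9 CPM in the LV and at 12.05, 9.87 and 11.1 CPM in the RV. It was lower in the RV in pairs 2 and 3, with ratios of 0.588 and 0.588, and higher in pair 1, with a ratio of 1.42. Pair 1 consists of the 2 libraries in which Wif1 and Aqp4 also ran against the labels. The log2 fold change was -0.42 (SE 0.28; unadjusted p = 0.167 by edgeR) with all libraries and -0.76 (unadjusted p = 0.0122, adjusted p = 0.417 by edgeR) without that pair.

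Irx2 was the 1 member of 5 that was higher in the RV library of every WntLOF pair (14.6% of all genes), with ratios of 1.23, 1.20 and 1.06, and 1.3% of all genes combined this with a lower RV library in every control pair. The ratio of 1.23 is that of pair 1, in which Wif1 and Aqp4 ran against the ventricle labels.

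Irx3 was the 1 member of 5 with WntLOF groups that did not overlap in the lower direction (3.7% of all genes), and none was higher without overlap (3.36%). It was at 56.0, 56.9 and 60.6 CPM in the LV and at 43.3, 48.9 and 52.5 CPM in the RV, with a log2 fold change of -0.26 (SE 0.19, 95% interval -0.68 to 0.15). The other log2 fold changes were 0.11 (SE 0.43) for Irx1, 0.20 (SE 0.26) for Irx2 and 0.04 (SE 0.15) for Irx4. Without pair 1, in which Wif1 and Aqp4 ran against the ventricle labels, the value was -0.10 for Irx1 and -0.21 for Irx3. The RV to LV ratios of Irx3 in pairs 1, 2 and 3 were 0.773, 0.858 and 0.867, so pair 1 had the widest gap. Of the 5 members, 0 passed the adjusted test (0.0% of all genes) and 0 had an unadjusted p under 0.05 (4.81% of all genes).

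**Figure D3:**
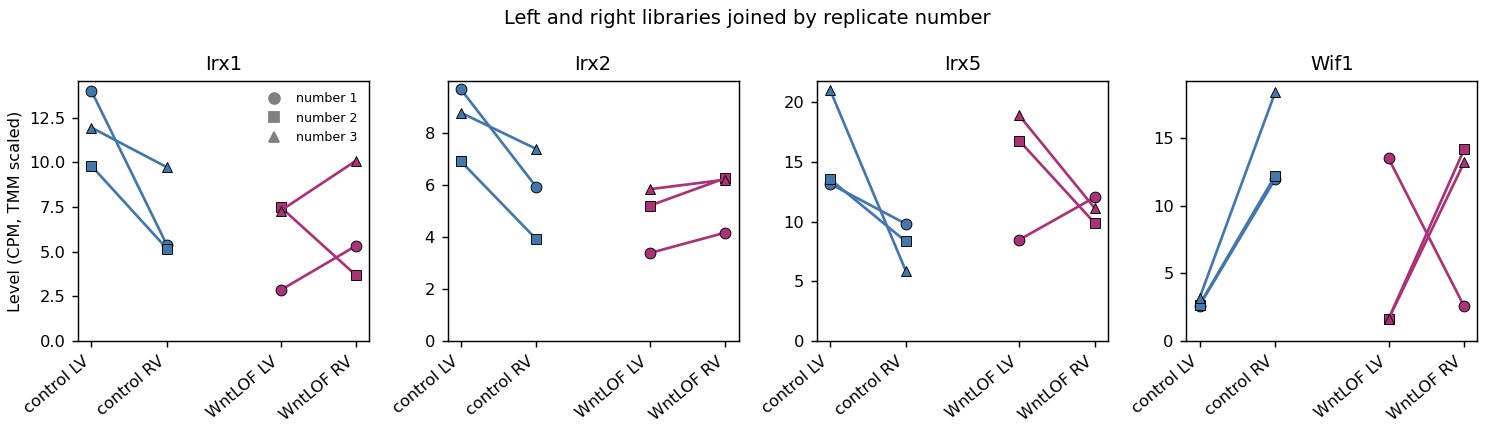
Levels in CPM (linear axes from 0) of Irx1, Irx2, Irx5 and the reference gene Wif1, with LV and RV libraries of the same number joined by a line, control in blue and WntLOF in purple. Irx2 lines slope down in all 3 control pairs and up in all 3 WntLOF pairs, and the line of WntLOF pair 1 runs against pairs 2 and 3 for Irx5 and Wif1.

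Over both genotypes together, Irx5 had an RV against LV log2 fold change of -0.70 (SE 0.20; unadjusted p = 0.00494, adjusted p = 0.56 by edgeR). Without pair 1 of WntLOF the value was -0.87, with an adjusted p of 0.0869 by edgeR, and without control LV 2 as well it was -0.92, with an adjusted p of 0.136. In an exact two-sided permutation test on log2(CPM + 0.1) over the 400 arrangements of ventricle labels within genotype, where the smallest possible p is 0.005, Irx5 had p = 0.03 for a difference of -0.66. That was the lowest unadjusted p of the 12 such tests, and those of the other members were 0.11 or more. It does not keep the pairs together. With exact sign flips within the 6 pairs, added after the data were seen (64 arrangements, smallest possible p 0.0312), Irx5 was lower in the RV in 5 of 6 pairs and had p = 0.0938. With the replicate block the unadjusted p for Irx5 was 0.0443 and the adjusted p 0.364 by edgeR. For WntLOF against control over both ventricles, Irx2 had a log2 fold change of -0.43 (SE 0.18; unadjusted p = 0.0325, adjusted p = 1 by edgeR) and a permutation p = 0.11. Both of these tests of Irx2 take same-numbered LV and RV libraries as independent, though such libraries may share a heart. Their p-values may therefore not measure the spread between hearts. Of the 5 members, 0 passed the adjusted test in either pooled comparison (0.0% of all genes in each). An unadjusted p under 0.05 was held by 1 of 5 in each, against 8.29% of all genes between ventricles and 3.61% between genotypes.

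The interaction asks whether the genotype difference itself differed between ventricles. For Irx2 it was 0.76 (SE 0.36, 95% interval -0.02 to 1.54), for Irx1 0.93 (SE 0.60) and for Irx5 0.56 (SE 0.40), all on the log2 scale. The unadjusted p by edgeR was 0.0559, 0.147 and 0.191, and the adjusted p was 1 for each. Irx3 had -0.17 (SE 0.27) and Irx4 0.11 (SE 0.21). Of the 5 members, 0 passed with adjustment (0.0% of all genes) and 0 without (2.01% of all genes). A different genotype effect in the LV and RV was therefore not shown for any member.

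Levels of members were also compared across the 12 libraries as a description. The libraries share groups and may share hearts, so no p is given. Irx1 and Irx2, neighbours on chromosome 13, had r = 0.81 (Spearman 0.78) over 12 libraries, and r = 0.66 for deviations from the group means. Irx2 ranked 27 among the 12313 genes compared with Irx1. Irx4, on the same chromosome, had r = 0.20 with Irx1 and 0.31 with Irx2. On chromosome 8, Irx3 and Irx5 had r = 0.39, lower than the 0.59 of Irx3 with Irx4 from the other cluster. Without WntLOF LV 1, WntLOF RV 1 and control LV 2 these 2 values were close, at 0.60 and 0.62, and r was 0.70 for Irx1 with Irx2, -0.01 for Irx4 with Irx1 and 0.07 for Irx4 with Irx2. Irx3 was highest in library 3 in 4 of 4 groups, a pattern held by 3.93% of all genes, and Irx4 in 3 of 4.

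The genes whose pattern was most like that of each member were listed by Pearson r of log2 CPM over the 12 libraries. For Irx5 they included Nid2, which encodes a basement membrane protein (r = 0.92), and Slc15a3, which encodes a peptide and histidine transporter (r = 0.90). For Irx4 they were Casc4, Rgcc and Gdf10 (r = 0.93, 0.92 and 0.92), and for Irx3 Ptprf, Rnf169 and Phldb1 (r = 0.90, 0.86 and 0.85). Irx1 was closest to Pdlim1, Otulin and Wscd1 (r = 0.87, 0.86 and 0.86), and Irx2 to Sppl2b, Micall2 and Ruvbl1 (r = 0.88, 0.86 and 0.86). Each of these is among the highest of 12313 values taken over the same 12 libraries.

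Kcnd2 encodes a pore subunit of the transient outward potassium current and is a known target of Irx5 repression. It was at 38.0, 44.8 and 31.2 CPM in control LV and at 94.4, 95.8 and 83.3 CPM in control RV, opposite in direction to Irx5. In WntLOF it was at 91.2, 43.1 and 27.8 CPM in the LV and at 54.2, 108.7 and 59.5 CPM in the RV, with the highest LV value in WntLOF LV 1, the LV library with the lowest Irx5. Over 12 libraries Irx5 and Kcnd2 had r = -0.87 (Spearman -0.85), and 4 of 12312 genes had a lower r with Irx5. The r was -0.73 for deviations from group means and -0.86 without WntLOF LV 1, WntLOF RV 1 and control LV 2. The deviations still include WntLOF LV 1 and WntLOF RV 1, in which Kcnd2 ran against the ventricle labels. The value without those libraries still includes the difference between the ventricles. Kcnd2 also had r = -0.67 with Irx1. The points share ventricle and genotype, so these values describe the libraries only. The RV against LV log2 fold change of Kcnd2 in control was 1.26 (SE 0.42; unadjusted p = 0.0138, adjusted p = 0.922 by edgeR), and it was not called.

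**Figure D4:**
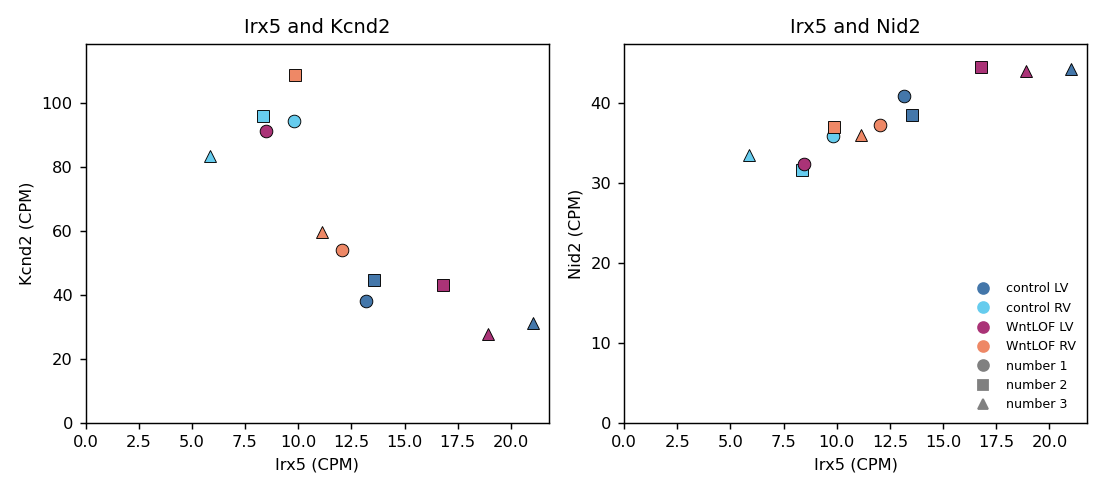
Level of Irx5 (CPM, horizontal axis) against Kcnd2 (left) and Nid2 (right) in the 12 libraries, with colour for the group and shape for the library number, on linear axes from 0. Libraries with more Irx5 had less Kcnd2 (r = -0.87) and more Nid2 (r = 0.92), and WntLOF LV 1 lies with the control RV libraries in both panels.

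Further genes that earlier work ties to cardiac Iroquois factors are Kcnip2, Gja1, Gja5 and Smyd1. In the LV, the WntLOF against control log2 fold changes were 0.12 (SE 0.13) for Kcnip2, the partner subunit of Kcnd2, 0.09 (SE 0.12) for Gja1 and 0.05 (SE 0.17) for Gja5, both connexins, and -0.07 (SE 0.08) for Smyd1, a muscle methyltransferase. In the RV they were 0.21 (SE 0.13), -0.07 (SE 0.12), -0.15 (SE 0.18) and -0.07 (SE 0.08) in the same order. Between the control ventricles they were -0.09 (SE 0.13), 0.09 (SE 0.12), -0.08 (SE 0.17) and -0.07 (SE 0.08), and between the WntLOF ventricles 0.00 (SE 0.13), -0.07 (SE 0.12), -0.28 (SE 0.17) and -0.06 (SE 0.08). None of these passed the edgeR test. Of the 13 genes on that list, all tested, 0 were called in any comparison. With WntLOF, 11 of 13 lay above 0 in the LV (median 0.09, against -0.0038 and 49.1% above 0 over all genes) and 6 of 13 in the RV (median -0.06, against 0.000715 and 50.3%). For RV against LV, 5 of 13 lay above 0 in control (median -0.04, against 0.00393 and 51.0%) and 5 of 13 in WntLOF (median -0.07, against -0.000621 and 49.8%).

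The other TALE homeobox genes, such as the Meis and Pbx families that act as cofactors of other homeodomain proteins, also had no call. Of 12 listed genes 10 were tested, with medians of 0.04 in the LV and 0.05 in the RV for WntLOF against control (-0.0038 and 0.000715 over all genes), and 0 of 10 had an unadjusted p under 0.05 in either (2.85% and 2.7% of all genes). Chamber transcription factors, among them the T-box and GATA families, had 17 of 20 genes tested and 0 called in any comparison. Their medians were 0.03 in the LV and 0.04 in the RV, with 1 of 17 at an unadjusted p under 0.05 in the RV and 0 of 17 in the LV, beside the same medians and shares over all genes.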

How the data were processed

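Raw counts per Ensembl gene for 12 libraries stand in 1 table that the authors deposited. Their 2 comparison tables hold log2 fold changes and p-values with score columns (moderated t, log odds and a signed linear fold), per the file headers. The tools featureCounts (Subread) and edgeR come from the submitters' processing notes. No source used here gives the aligner, versions, build or strand setting. The 598 repeated rows, with equal counts, were dropped from 41192. Groups and numbers came from the sample titles.

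Counts were filtered with filterByExpr by group and fitted with edgeR 4.0.16 in R 4.3.3 (limma 3.58.1; TMM factors 0.961 to 1.04; robust quasi-likelihood; 1 mean per group over 12 libraries). Adjustment was Benjamini-Hochberg over 15494 genes, with a threshold of 0.05. The standard error is the log2 fold change over the square root of F. RPKM used exon unions of GENCODE M21, and sequences came from its transcripts. DESeq2 1.42.0, other filters and scalings, blocks and left-out libraries were alternatives. Scripts were tested on simulated data.

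Members and lists were chosen with earlier results of these data known. Named genes were the 6 members, the 3 most alike genes of mean log2 CPM of at least 1 for each tested member, Kcnd2, Kcnip2, Gja1, Gja5, Smyd1, Mkx, the reference genes Wif1 and Aqp4, and list members only where called; 2 genes that this rule names are not reported here. Equal numbers were taken to pair the ventricles from the data: deviations of same-numbered LV and RV libraries correlated at 0.411, 0.29 and 0.517 in control and at 0.191, 0.197 and 0.594 in WntLOF. WntLOF LV 1 and WntLOF RV 2 correlated at 0.201, above the same-numbered values of WntLOF numbers 1 and 2. The data therefore do not settle the pairing of these WntLOF numbers. Across genotypes, same-numbered libraries correlated at -0.043, -0.0903 and 0.233 in the LV and at 0.0885, 0.113 and 0.306 in the RV. Equal numbers were not taken to pair genotypes in the main fit. In the genotype comparisons the replicate block was the library number, shared by control and WntLOF.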

Additional observations from a re-analysis of the deposited data

Results flagged for a closer look

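Irx2 was lower in the RV library of all 3 control pairs and higher in the RV library of all 3 WntLOF pairs, a pattern that 1.3% of the 15494 tested genes share in that direction. The RV to LV ratios were 0.611, 0.566 and 0.841 in control and 1.23, 1.20 and 1.06 in WntLOF. The interaction was 0.76 on the log2 scale and did not pass the edgeR test (unadjusted p = 0.0559, adjusted p = 1). With the replicate block it was 0.80, with an unadjusted p of 0.00296 and an adjusted p of 0.996 by edgeR. The pattern includes pair 1 of WntLOF (ratio 1.23), in which Wif1, Aqp4 and Kcnd2 ran against the ventricle labels. Without that pair the interaction was 0.73, with an unadjusted p of 0.053 and an adjusted p of 1 by edgeR. The control LV libraries, which set the control side of it, are the same that enter the genotype comparison in the LV.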

How the results depend on the processing

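Of 280 values of the members under alternatives other than leaving out 1 library, 269 kept their direction and side of the threshold, 10 reversed and 1 passed it (Irx1 with the control libraries alone and blocked). Leaving out 1 library reversed 22 of 300. The cause was not tested. The libraries, 3 in a group, limit what the tests can resolve, and member counts of a few CPM add counting error.

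Gene counts that moved from 0 were as follows. In the edgeR fits of all 12 libraries, the replicate block gave 1 called gene between WntLOF ventricles and 1 in the interaction. It changed no other call in those fits. In the exact permutation test of Irx5 between ventricles, sign flips within pairs moved the p from 0.03 to 0.0938. With the compared groups alone there were 9 between control ventricles, 326 with the replicate block too, and 67 with the block and without control pair 2. In WntLOF the block with the groups alone gave 1. DESeq2 gave 5 over both ventricles and 10 over both genotypes. Without pair 1 of WntLOF the counts were 2 between control ventricles, 2 between WntLOF ventricles, 2 over both ventricles and 22 over both genotypes. Without control LV 2 as well they were 2, 2, 0 and 8. Leaving out 1 library gave 0 to 1 between WntLOF ventricles (1 without WntLOF RV 1), 0 to 1 over both ventricles (1 without WntLOF LV 1) and 0 to 4 over both genotypes (4 without WntLOF RV 1).

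Log2 fold changes that reversed, first without pair 1 of WntLOF and then without control LV 2 as well where both did, were these. In the LV, Irx5 had 0.173 and 0.0698, Gja5 -0.0836 and -0.14, and Kcnd2 -0.106. In the RV, Irx1 had 0.0298 and 0.0296 and Irx2 0.119 and 0.119. Between WntLOF ventricles, Irx1 had -0.104 and -0.105 and Kcnip2 -0.048 and -0.0486. In the interaction, Smyd1 had -0.0264 and -0.0408, and without all 3 libraries Irx3 had 0.0327 and Kcnip2 -0.00779. Over both ventricles, Kcnd2 had -0.112 and -0.0442 and Gja1 -0.0242 and -0.0274, and over both genotypes Irx4 had 0.00819 without pair 1. Kcnip2 between WntLOF ventricles was -0.00822 with the replicate block and -0.0136 with the block and these groups alone.

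Leaving out 1 library gave ranges across 0 as follows. In the LV they were -0.084 to 0.165 for Gja5, -0.0441 to 0.18 for Irx4, -0.318 to 0.172 for Irx5 and -0.106 to 0.834 for Kcnd2. In the RV they were -0.575 to 0.271 for Irx1, -0.258 to 0.166 for Irx2 and -0.0594 to 0.0874 for Irx3. Between control ventricles they were -0.187 to 0.0562 for Gja5, -0.248 to 0.244 for Irx3 and -0.164 to 0.0262 for Irx4. Between WntLOF ventricles they were -0.383 to 0.388 for Irx1, -0.054 to 0.166 for Irx4 and -0.158 to 0.142 for Kcnip2. In the interaction they were -0.0704 to 0.229 for Kcnip2 and -0.0332 to 0.0397 for Smyd1. Over both ventricles they were -0.0292 to 0.0615 for Gja1, -0.117 to 0.0164 for Gja5 and -0.202 to 0.269 for Kcnd2. Over both genotypes they were -0.0428 to 0.0526 for Gja1, -0.0644 to 0.0485 for Irx4 and -0.123 to 0.028 for Kcnip2.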
